A study of Homo sapiens with 4 samples.

Results

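Claudins are the membrane proteins that form the strands of the tight junction, and 9 of their genes (CLDN1, CLDN3, CLDN4, CLDN7, CLDN8, CLDN11, CLDN12, CLDN16 and CLDN23) are described here out of 18840 genes measured. They were taken from the gene table by their symbols, with all 4 libraries, from 24 claudin genes in the table. The choice of these 9 was made with earlier results of these data known. The libraries were poly(A) RNA-seq of MCF10A, an immortalised and non-tumorigenic human mammary epithelial line, stably carrying pBabe-miR-105, pBabe-MYC, pBabe-GFP or the empty pBabe vector, a retroviral plasmid. There was 1 library per construct, so the GFP and vector libraries served as controls that share the viral backbone, and no value below has a replicate check. The labels give neither clones, passage nor time after transduction. Reported targets of the microRNA miR-105 include tight junction protein 1 (TJP1) and the MYC antagonist MXI1, and the design sets cells given this microRNA beside cells given MYC.

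Each claudin crosses the membrane 4 times, and its outer loops meet claudins of the neighbouring cell, closing the space between cells or leaving pores for chosen ions. Inside the cell most claudins bind the scaffold proteins of the TJP family, TJP1 and TJP3 among them, through the end of their tail. Which claudins a cell makes sets how tight and how ion-selective its epithelium is, and loss of several claudins marks a group of breast tumours known as claudin-low.

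Recovered reads numbered 6859698 in the miR-105 library, 9795159 in the library labelled MYC, 14025115 in the GFP library and 9138429 in the vector library. Expression is given as CPM, the reads of a gene scaled to a common depth with TMM factors, in which 1 read was worth 0.157, 0.0948, 0.0722 and 0.108 CPM in that order. Bounds are exact 95% intervals for counting error alone. MYC mRNA stood at 463 CPM in the miR-105 library, 232 in the library labelled MYC, 198 in the GFP library and 207 in the vector library. This put the library labelled MYC only 1.17-fold above GFP (1.11 to 1.24) and 1.12-fold above vector (1.05 to 1.19). The highest level was in the miR-105 library. No clear rise of MYC mRNA therefore bears out the label, and MYC reads from the construct and from the cells' own gene were not told apart. Whether the label is right was not tested, a limit on every direction drawn below from the library labelled MYC. Of 11 mammary epithelial marker symbols, 10 were in the table and all 10 were read in every library. Their summed levels were 12785, 8685, 11527 and 12622 CPM in the same order, but single markers moved in opposite ways. In the miR-105 library ITGA6, KRT5 and KRT6A were at least 2-fold above both controls, and KRT17 and KRT14 at least 2-fold below. TP63 and KRT5 were above, and CDH1 and KRT17 below, in the library labelled MYC. CDH1 stood at 368, 183, 768 and 549 CPM in that order of libraries. Shares of all genes past 2-fold are given further below. Fibroblast markers summed to 27.4, 158, 84.7 and 130.3 CPM over 6 genes, most of it DCN, with COL3A1 at 0 reads in each library. Endothelial markers summed to 1.88 CPM in the miR-105 library and 3.13 in the library labelled MYC, against 16.6 in GFP and 13.9 in vector, over 3 genes. Most of this was PECAM1, at 1.73 and 2.46 CPM in the first pair against 15.9 and 12.8 CPM in GFP and vector, so it was lower in the same libraries as the claudins. Immune markers summed to between 8.34 and 19.7 CPM over 3 genes, most of it CD68, while PTPRC, which marks all leukocytes, had at most 1 read. These sums differ between the libraries and their part in the claudin values was not tested. In bulk RNA, fewer cells with a transcript and less of it per cell cannot be told apart.

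The mature strands of miR-105 are shown because the construct carries this microRNA. They are RefSeq sequences of MIR105-1 on GRCh38.p14, on the minus strand, the 5p strand at chrX:152392265-152392287 and the 3p strand at chrX:152392228-152392249, with the seed (bases 2 to 8) in capitals.
hsa-miR-105-5p: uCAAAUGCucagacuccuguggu
hsa-miR-105-3p: aCGGAUGUuugagcaugugcua
The match to the 5p seed, GCATTTG, occurred in the annotated 3′ UTR of 2664 of 17797 genes (15%), and that to the 3p seed, ACATCCG, in 276 genes (1.55%). The median of these 3′ UTRs was 1108 bases, and a longer one has more room for a match. CLDN12, with 2543 bases, held none. Among the 9 claudins the 5p match occurred 1 time in CLDN1 and 1 time in CLDN23, and the 3p match in none. In CLDN1, on chromosome 3, it began at base 1672 of a 3′ UTR of 2576 bases (GENCODE release 29), and is printed with the match in capitals because CLDN1 lay furthest below the controls among the claudins with reads in the miR-105 library.
CLDN1 3′ UTR site: tgtttgagcaagGCATTTGgctgctgtaa
A match is a description of letters and does not show binding. Among genes that passed the expression filter explained below, 12.9% of the 2042 with a 5p match and 17.0% of the 10046 without one were at least 2-fold lower in the miR-105 library than in both controls.

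Promoter windows, 250 bases before to 50 after a RefSeq start site on GRCh38.p14, were found for 7 of the 9 claudins (CLDN8 and CLDN23 had no entry in the table used). The windows of CLDN4 and CLDN3 are shown because these chromosome 7 neighbours were both far below the controls in the library labelled MYC, and the window at the second start site of CLDN7 because this gene was lower in both the miR-105 library and the library labelled MYC. Capitals mark AP-1 letters (TGANTCA) in CLDN4 and E-box letters (CACCTG or, on the other strand, CAGGTG) in CLDN3 and CLDN7. The coordinates are chr7:73830746-73831045 (plus strand) for CLDN4, chr7:73770221-73770520 (minus strand) for CLDN3 and chr17:7262429-7262728 (minus strand) for CLDN7.
CLDN4 promoter: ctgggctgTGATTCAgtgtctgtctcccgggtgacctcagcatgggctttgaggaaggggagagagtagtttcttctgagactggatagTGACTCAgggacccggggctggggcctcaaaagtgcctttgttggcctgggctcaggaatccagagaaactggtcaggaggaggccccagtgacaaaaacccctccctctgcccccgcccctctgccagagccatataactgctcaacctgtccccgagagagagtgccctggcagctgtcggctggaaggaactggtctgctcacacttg
CLDN3 promoter: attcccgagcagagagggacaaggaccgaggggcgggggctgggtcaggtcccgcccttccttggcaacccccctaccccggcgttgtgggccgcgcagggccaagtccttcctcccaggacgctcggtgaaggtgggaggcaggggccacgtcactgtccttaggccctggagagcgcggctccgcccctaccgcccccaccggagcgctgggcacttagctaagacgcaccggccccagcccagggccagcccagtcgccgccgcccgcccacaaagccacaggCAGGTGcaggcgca
CLDN7 promoter, second start site: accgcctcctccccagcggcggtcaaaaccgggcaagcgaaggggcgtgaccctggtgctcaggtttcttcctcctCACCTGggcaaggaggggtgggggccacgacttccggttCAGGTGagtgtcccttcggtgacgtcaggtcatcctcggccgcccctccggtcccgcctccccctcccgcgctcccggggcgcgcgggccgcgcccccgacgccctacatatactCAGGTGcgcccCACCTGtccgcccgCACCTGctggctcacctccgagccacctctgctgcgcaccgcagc
Both strands were searched. CLDN4 had 2 AP-1 matches, at -242 and -161 from its start site, against 7.71% of 35116 promoter windows with at least 1. CLDN3 had 1 E-box match at +37, and CLDN7 had 5 at its second start site, at -174, -135, -20, -9 and +6, and 0 at its first, against 20.6% of windows with at least 1. The second start site of CLDN16 also had 1 E-box match (+21), and its first start site 1 AP-1 match. The windows of CLDN1, CLDN11 and CLDN12 had 0 AP-1 matches and 0 of these E-box matches, and CLDN1 too was lower in both libraries. All windows printed are thus ones that hold marked letters. No window of the 7 claudins held the letters CACGTG (7.26% of windows), AACCGGTT (0.134%) or ACCGGTT, which lies within the preceding motif (0.772%). For the windows this says only that the letters are not in these 300 bases.

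CLDN1, the barrier-forming claudin whose loss in mice is fatal through water loss across the skin, lay furthest below the controls among the claudins with reads in the miR-105 library. Its level was 27.0 CPM (172 reads) in the miR-105 library, 139 CPM (1469 reads) in the library labelled MYC, 472 CPM (6533 reads) in the GFP library and 342 CPM (3165 reads) in the vector library. All 4 levels stood apart beyond counting error, with both control libraries highest. The miR-105 library was 17.5-fold below GFP (15 to 20.5) and 12.7-fold below vector (10.9 to 14.9). For the library labelled MYC the level was 3.39-fold below GFP (3.20 to 3.59) and 2.46-fold below vector (2.31 to 2.62). Set directly against each other, the miR-105 library was 5.16-fold below the library labelled MYC (4.41 to 6.08). The controls differed by less, 1.38-fold higher in GFP than in vector (1.32 to 1.44).

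CLDN4, a sealing claudin of glandular epithelia and a receptor of Clostridium perfringens enterotoxin, was instead lowest in the library labelled MYC. It stood at 168 CPM (1068 reads) in the miR-105 library, 2.75 CPM (29 reads) in the library labelled MYC, 299 CPM (4133 reads) in the GFP library and 276 CPM (2551 reads) in the vector library. This low level was far apart from the other three. It was 109-fold below GFP (75.5 to 162) and 100.3-fold below vector (69.7 to 150.1). The miR-105 library was 1.78-fold below GFP (1.67 to 1.91) and 1.65-fold below vector (1.53 to 1.77), beyond counting error but short of the 2-fold threshold used below. It was 60.9-fold above the library labelled MYC (42.2 to 91.4).

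CLDN3, another receptor of that toxin and the genomic neighbour of CLDN4, was read far less often. It had 3.14 CPM (20 reads) in the miR-105 library, 0.0948 CPM (1 read) in the library labelled MYC, 6.72 CPM (93 reads) in the GFP library and 4.65 CPM (43 reads) in the vector library. The library labelled MYC was again lowest, while the vector library did not differ beyond counting error from the miR-105 library or from GFP. With a single read, the library labelled MYC was 70.9-fold below GFP, with an interval as wide as 12.4 to 2829, and 49.0-fold below vector (8.34 to 1981). The miR-105 library was 2.14-fold below GFP (1.31 to 3.67) and 1.48-fold below vector (0.853 to 2.66). The gene on the other side of CLDN3, ABHD11, was also lowest in the library labelled MYC, at 38.6 CPM in the miR-105 library, 5.88 in the library labelled MYC, 33.9 in GFP and 45.6 in vector. It was 5.76-fold below GFP (4.42 to 7.64) and 7.76-fold below vector (5.93 to 10.3) in the library labelled MYC. WBSCR27, on the other side of CLDN4, had at most 4 reads in any library.

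CLDN7, which sits along the sides of epithelial cells and binds the adhesion protein EPCAM, was lower in the miR-105 library and in the library labelled MYC to nearly the same level. It stood at 105 CPM (669 reads) in the miR-105 library, 98.9 CPM (1043 reads) in the library labelled MYC, 227 CPM (3136 reads) in the GFP library and 228 CPM (2112 reads) in the vector library. The first pair lay apart from the controls, and within each pair the libraries did not differ beyond counting error. The miR-105 library was 2.16-fold below GFP (1.99 to 2.35) and 2.18-fold below vector (1.99 to 2.38). CLDN7 in the library labelled MYC was 2.29-fold below GFP (2.14 to 2.46) and 2.31-fold below vector (2.14 to 2.49). The miR-105 library over the library labelled MYC gave a ratio of 1.06 (0.962 to 1.17). CLDN7 shares 307 exon bases with ELP5 on the opposite strand and with AC003688.1 on its own, and whether reads were counted by strand is not stated, so their reads could be shared. ELP5 went the other way, at 27.4 CPM in the miR-105 library, 26.0 in the library labelled MYC, 19.3 in GFP and 18.5 in vector.

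CLDN8, which limits the passage of cations in the kidney's collecting duct, was low in the controls and lower elsewhere. It had 0.784 CPM (5 reads) in the miR-105 library, 0 reads in the library labelled MYC, 5.06 CPM (70 reads) in the GFP library and 6.70 CPM (62 reads) in the vector library. A count of 0 in the library labelled MYC allows a level of up to 0.284 CPM, the worth of 3 reads. The miR-105 library was 6.45-fold below GFP (2.64 to 20.5) and 8.55-fold below vector (3.47 to 27.2). Taking its level as 3 reads, the library labelled MYC was 17.8-fold below GFP and 23.6-fold below vector, with exact lower bounds of 14.1 and 18.6. Both lay beyond the 1.33-fold difference between GFP and vector, lower in GFP (0.926 to 1.89).

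CLDN12, a claudin without the tail that binds TJP scaffolds, was the steadiest of the well-read members. Its level was 71.0 CPM (453 reads) in the miR-105 library, 47.1 CPM (497 reads) in the library labelled MYC, 88.5 CPM (1225 reads) in the GFP library and 62.7 CPM (580 reads) in the vector library. The miR-105 value lay between the controls, 1.25-fold below GFP (1.12 to 1.39) and 1.13-fold above vector (1.0 to 1.28), the comparison with vector being within counting error. It was 1.88-fold below GFP (1.69 to 2.09) and 1.33-fold below vector (1.18 to 1.5) in the library labelled MYC. GFP itself was 1.41-fold above vector (1.28 to 1.56), a gap between those values. CLDN12 shares 210 exon bases with the noncoding AC006153.1.

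CLDN23, a claudin of the intestinal surface epithelium, was lowest in the library labelled MYC. It had 3.14 CPM (20 reads) in the miR-105 library, 1.23 CPM (13 reads) in the library labelled MYC, 4.26 CPM (59 reads) in the GFP library and 3.89 CPM (36 reads) in the vector library. The other three libraries did not differ from each other beyond counting error. The library labelled MYC was 3.46-fold below GFP (1.88 to 6.87) and 3.16-fold below vector (1.64 to 6.49). The miR-105 library was 1.36-fold below GFP (0.806 to 2.38) and 1.24-fold below vector (0.699 to 2.26), both within counting error, for this gene that also holds a 5p seed match. Of its neighbours on chromosome 8, SGK223 was also lowest in the library labelled MYC, at 98.3 CPM in the miR-105 library, 13.1 in the library labelled MYC, 144 in GFP and 105 in vector. MFHAS1, on the other side, stood at 64.5, 28.3, 31.6 and 17.9 CPM in the same order, and was lowest in vector.

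CLDN11, known from myelin and the Sertoli cells of the testis, and CLDN16, needed for magnesium reabsorption in the kidney, were near the limit of detection. CLDN11 had 0 reads in the miR-105 library, 2 reads in the library labelled MYC, 17 in the GFP library and 6 in the vector library, the last 3 being 0.19, 1.23 and 0.649 CPM. CLDN16 had 0 reads in the miR-105 library, 10 in the library labelled MYC, 22 in the GFP library and 9 in the vector library, the last 3 being 0.948, 1.59 and 0.973 CPM. A count of 0 in the miR-105 library allows up to 0.471 CPM. For CLDN11, taken as 3 reads, the miR-105 library was 2.61-fold below GFP and 1.38-fold below vector. The exact lower bounds were 1.9 and 0.812, so the comparison with vector was within counting error. For CLDN16, taken in the same way, the miR-105 library was 3.38-fold below GFP and 2.07-fold below vector, with exact lower bounds of 2.52 and 1.36. CLDN16 in the library labelled MYC did not differ beyond counting error from vector (1.03-fold lower, 0.369 to 2.81). CLDN16 lies beside CLDN1 on chromosome 3, and P3H2, its neighbour on the other side, varied between 159 and 199 CPM over the 4 libraries. CLDN11 shares 590 exon bases with AC026316.5 on the same strand.

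**Figure D1:**
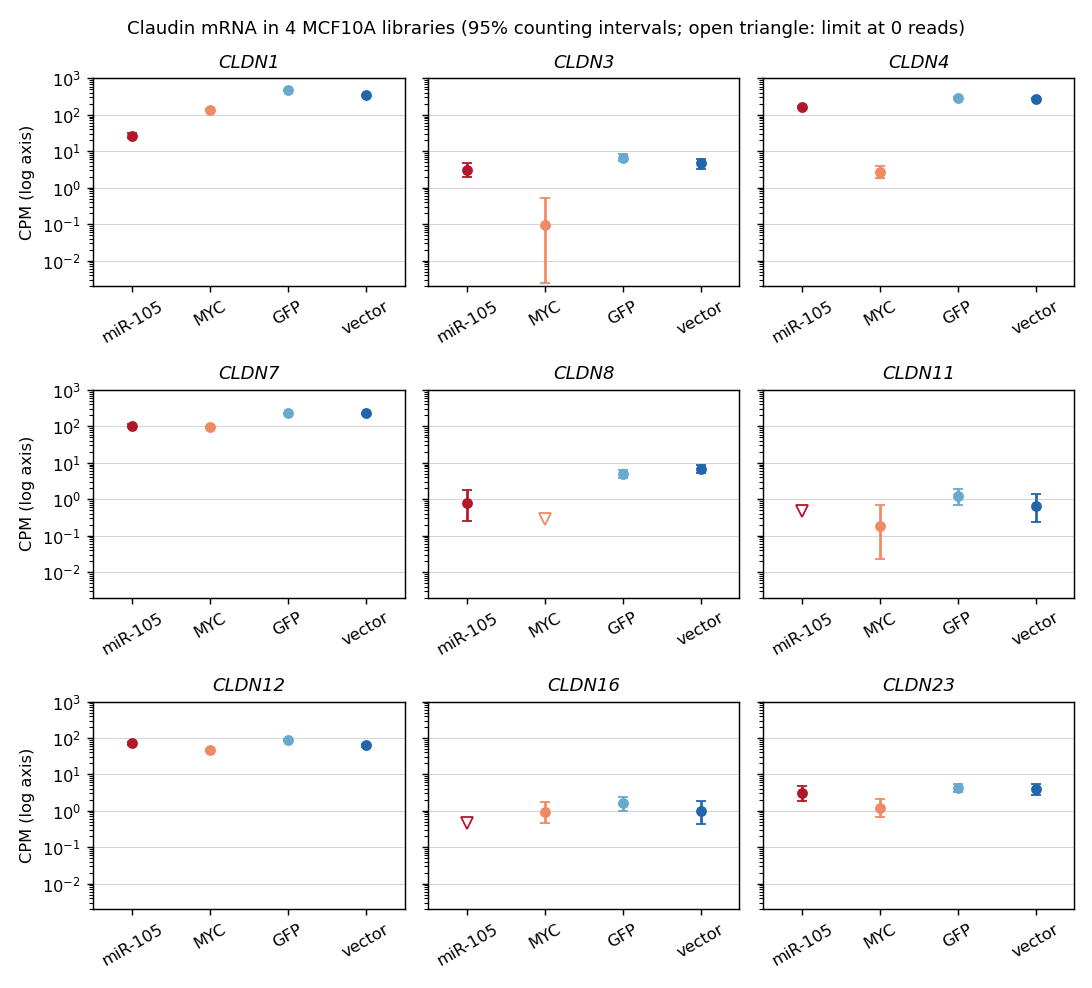
Level of each claudin in CPM (log axis) in the miR-105, labelled MYC, GFP and vector libraries, 1 library per point, with bars for the exact 95% Poisson counting interval and an open triangle at the worth of 3 reads where no read was found. CLDN1 was lowest in the miR-105 library (27.0 CPM), CLDN4 in the library labelled MYC (2.75 CPM), and CLDN7 stood at 105 and 98.9 CPM in these libraries against 227 and 228 CPM in GFP and vector.

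For the comparison over members, the 12484 genes whose 4 libraries averaged 1 CPM or more were kept, and 7 of the 9 claudins were among them (CLDN11, at a mean of 0.517 CPM, and CLDN16, at 0.878 CPM, were not). CLDN23, at a mean of 3.13 CPM, and CLDN8, at 3.14 CPM, were the lowest of those kept. Log2 ratios had 0.5 CPM added to both levels, so that folds of rarely read genes come out too small, and a gene was counted when at least 2-fold from GFP and from vector in the same direction. In the miR-105 library 3 of the 7 were counted as lower (CLDN1, CLDN7 and CLDN8), where 16.6% of all 12484 genes were, and 0 as higher, where 14.7% were. In the library labelled MYC 6 of the 7 were counted as lower, where 10.4% of all genes were, and 0 as higher, where 9.03% were. CLDN12 was the exception. The median log2 fold of the 7 was -0.77 in the miR-105 library, against 0.01 over all genes, and -1.53 in the library labelled MYC, against 0.04 over all genes. Both libraries are set against the same controls, so their counts are not independent of each other. CLDN8 passed the filter through GFP and vector alone, with 0.784 CPM in the miR-105 library and 0 reads in the library labelled MYC. It could therefore only be counted as lower in both. Other genes kept in this way, here and in the lists below, share this limit. CLDN3 was likewise under 1 CPM (0.0948) in the library labelled MYC. With a filter of 5 CPM, 4 claudins were left, 2 of them lower in the miR-105 library and 3 in the library labelled MYC.

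Between the controls, 0 of the 7 claudins differed 2-fold, where 3.06% of genes were higher and 1.03% lower in GFP than in vector, and the median log2 fold of the claudins was 0.12. The miR-105 library against the library labelled MYC, a comparison that uses no control, had 4 of the 7 at least 2-fold higher (CLDN3, CLDN4, CLDN8 and CLDN23), where 19.0% of genes were. In the same comparison 1 claudin, CLDN1, was at least 2-fold lower, where 19.8% of genes were. Thus the lowest library differed by gene. It was the miR-105 library for CLDN1, CLDN11 and CLDN16, although for CLDN11 no neighbours in the order of libraries differed beyond counting error, and the library labelled MYC for the other 6, although for CLDN7 the miR-105 library did not differ from it beyond counting error.

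**Figure D2:**
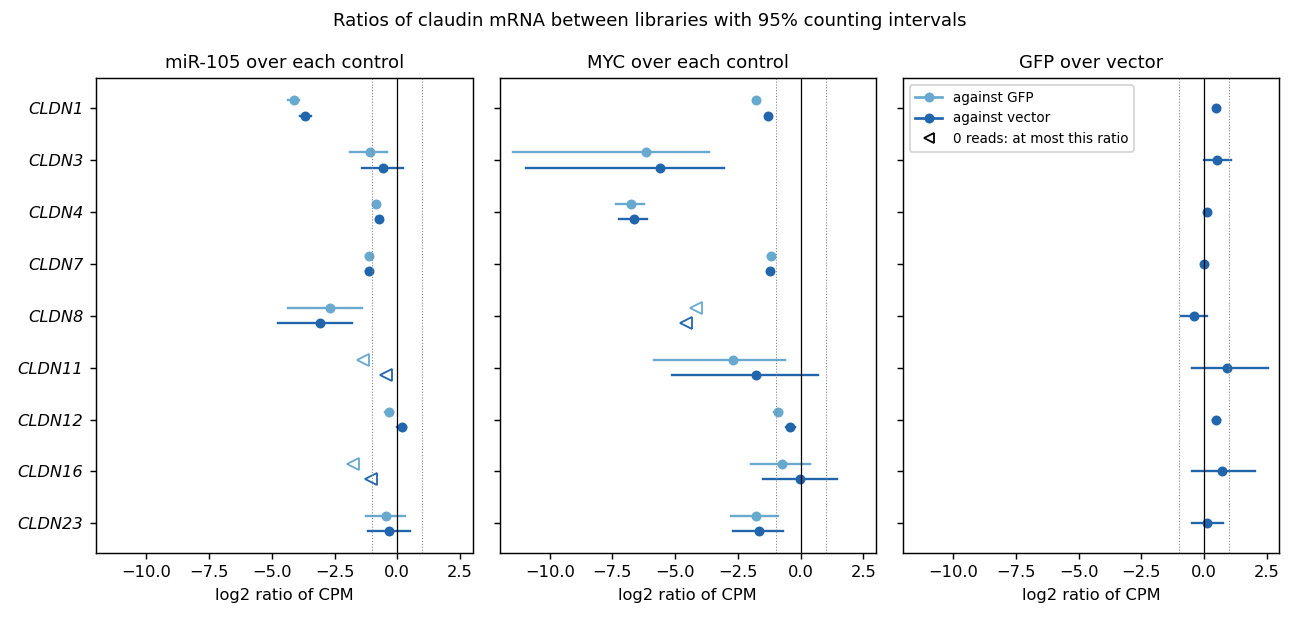
Log2 ratio of CPM with nothing added for each claudin, the miR-105 library and the library labelled MYC over GFP and over vector, and GFP over vector, with exact 95% counting intervals, a dotted line at each 2-fold ratio and open triangles where the first library had 0 reads. CLDN1 lay 17.5-fold and 12.7-fold below GFP and vector in the miR-105 library, CLDN4 lay 109-fold and 100.3-fold below them in the library labelled MYC, and the GFP over vector ratios of the 7 claudins that passed the filter stayed within 2-fold.

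Added together, the 9 claudins reached 378 CPM in the miR-105 library (2407 reads), 290.5 CPM in the library labelled MYC (3064 reads), 1104 CPM in the GFP library (15288 reads) and 926 CPM in the vector library (8564 reads). The sum was 2.93-fold below GFP (2.80 to 3.06) and 2.45-fold below vector (2.34 to 2.57) in the miR-105 library. The corresponding folds for the library labelled MYC were 3.80 below GFP (3.66 to 3.95) and 3.19 below vector (3.06 to 3.32). The 2 sums were closer to each other than to the controls, with the miR-105 library 1.3-fold above the library labelled MYC (1.23 to 1.37), but they were made up differently. As a share of claudin reads, not corrected for transcript length, CLDN1 held 7.15% in the miR-105 library (6.15 to 8.25, exact binomial) and 47.9% in the library labelled MYC (46.2 to 49.7), against 42.7% in GFP and 37.0% in vector. CLDN4 held 44.4% in the miR-105 library (42.4 to 46.4) and 0.946% in the library labelled MYC (0.635 to 1.36), against 27.0% in GFP and 29.8% in vector. CLDN12 took a larger share in both, 18.8% in the miR-105 library and 16.2% in the library labelled MYC, against 8.01% in GFP and 6.77% in vector. CLDN7 took 27.8% in the miR-105 library and 34.0% in the library labelled MYC, against 20.5% in GFP and 24.7% in vector.

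**Figure D3:**
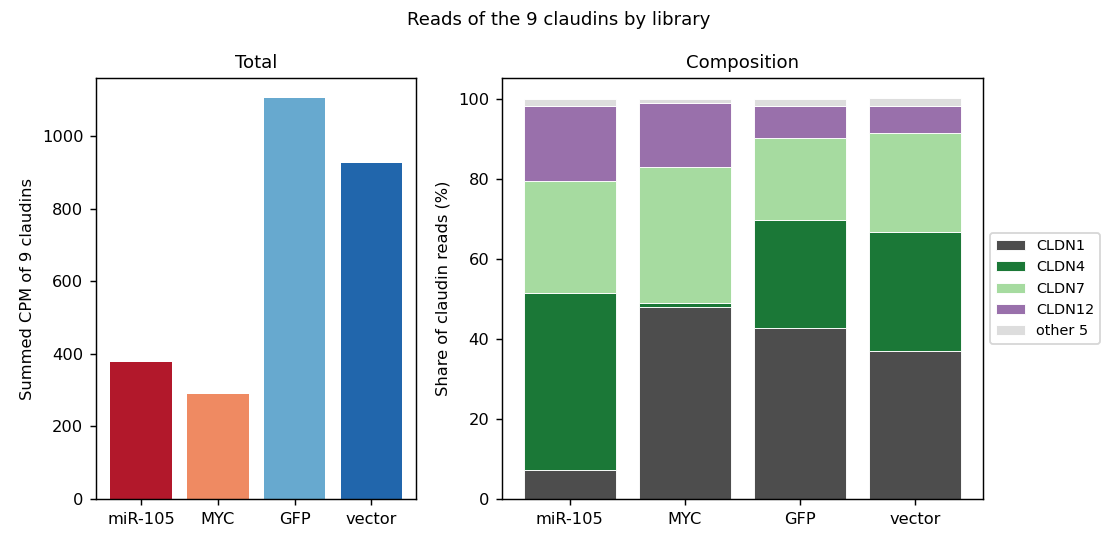
Left, summed CPM of the 9 claudins in each library; right, the percentage of claudin reads that each of 4 claudins, and the other 5 together, took. The sums were 378 and 290.5 CPM in the miR-105 library and the library labelled MYC, against 1104 and 926 CPM in GFP and vector, and CLDN4 took 44.4% of claudin reads in the miR-105 library and 0.946% in the library labelled MYC.

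Levels of different claudins were compared as CPM per kilobase of the longest RefSeq-matched transcript. In the miR-105 library the order ran CLDN4 (91.5), CLDN7 (54.6), CLDN12 (19.9) and CLDN1 (7.75 CPM per kilobase). In the library labelled MYC it ran CLDN7 (51.4), CLDN1 (40), CLDN12 (13.2) and CLDN4 (1.5). The controls had CLDN4 first, at 163 in GFP and 151 in vector, with CLDN1 at 136 and 98.3 and CLDN7 at 118 and 119 CPM per kilobase. The place of CLDN4 rests on its annotated length of 1831 bases. With all annotated exons joined, 4196 bases, its level relative to CLDN7 was 0.785 in the miR-105 library in place of 1.68, 0.648 in GFP in place of 1.38 and 0.594 in vector in place of 1.27, so the order of these genes turned there. In the library labelled MYC CLDN4 stayed far below CLDN7 either way. The remaining 5 claudins reached at most 5.27 CPM per kilobase in every library.

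The 4 claudins that passed the filter and spanned at least 4-fold over the libraries were CLDN1, CLDN3, CLDN4 and CLDN8, and each was set beside the 10856 genes that averaged 5 CPM or more. Likeness was the Euclidean distance between log2(CPM + 0.5) values centred on their mean over the 4 libraries, a description with 4 points. The nearest to CLDN1 were CYBRD1, MME and ABHD4, at distances of 0.196, 0.202 and 0.221, with 91 genes within 1 log2 unit. For CLDN3 they were MYO5B, FHDC1 and ZNF229, at 0.190, 0.275 and 0.333, with 105 genes within that distance. For CLDN4 they were MYPN, PROM2 and WNT7B, at 0.312, 0.444 and 0.501, with 14 genes within that distance. For CLDN8 they were DKK1, KLK8 and GGTLC2, at 0.204, 0.301 and 0.337, with 58 genes. CLDN3 had 1 read and CLDN8 0 reads in the library labelled MYC. The 0.5 CPM added makes their profiles flatter than the reads, so their distances depend in part on it. PROM2, for instance, stood at 329.8 CPM in the miR-105 library, 7.68 in the library labelled MYC, 561 in GFP and 454 in vector.

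Genes of the junction around the claudins were taken from 3 lists. The median log2 fold of all 12484 genes was 0.01 in the miR-105 library and 0.04 in the library labelled MYC. Of the 24 tight junction partners measured, 21 passed the filter. In the miR-105 library 5 of them were at least 2-fold lower than both controls (TJP3, ILDR1, CGNL1, CXADR and CRB3) and 0 higher, where 16.6% and 14.7% of all genes were, with a median log2 fold of -0.55. TJP3, one of the scaffolds that bind claudin tails, had 0.784 CPM in the miR-105 library, 69.5 in the library labelled MYC, 30.7 in GFP and 25.8 in vector. It was thus 32.9-fold below vector (13.9 to 102) in the miR-105 library and 2.69-fold above vector (2.32 to 3.13) in the library labelled MYC. ILDR1, which marks junctions where 3 cells meet, had 0.314, 0.19, 4.41 and 2.70 CPM in the same order of libraries. Its reads numbered 2, 2, 61 and 25. In the miR-105 library CGNL1, at 3 reads, was 5.83-fold below GFP (1.85 to 29.5) and 5.05-fold below vector (1.52 to 26.4). CXADR there was 2.82-fold below GFP (2.19 to 3.67) and 2.08-fold below vector (1.58 to 2.76). Counted in the library labelled MYC were 6 lower partners (CGN, ILDR1, TJP1, OCLN, MARVELD3 and LSR) and 3 higher ones (MPDZ, JAM3 and TJP3). Of all genes 10.4% were lower and 9.03% higher there, and the median log2 fold of the partners was -0.16. CGN, which links the scaffolds to actin and myosin, was 25.7-fold below GFP (15.9 to 44.4) and 18.6-fold below vector (11.4 to 32.4). OCLN, the other strand protein, was 3.41-fold below GFP (2.85 to 4.11) and 2.53-fold below vector (2.08 to 3.09). JAM3 passed the filter through the miR-105 library and the library labelled MYC, at 1.73 and 2.46 CPM. It had 0.65 CPM (9 reads) in GFP and 0.432 CPM (4 reads) in vector, so it could only be counted as higher. TJP1 is the scaffold reported as a miR-105 target. It had 219 CPM in the miR-105 library, 99.3 in the library labelled MYC, 388 in GFP and 264 in vector. Only the library labelled MYC was 2-fold below both controls. MXI1, in none of the lists but also a reported target, had 14.0 CPM in the miR-105 library and 79.2 in the library labelled MYC. It had 88.9 CPM in GFP and 81.2 in vector, and only the miR-105 library was 2-fold below both. Action of the microRNA on either gene was not tested.

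Of 12 proteins that bind or modify claudins 11 passed the filter, and 4 were lower in the miR-105 library (WNK4, PRSS8 and SPINT1 among them, median log2 fold -0.42) and 4 in the library labelled MYC (PRSS8, EPHA2 and LNX1 among them, median -0.85), with 0 higher in either. The shares of all genes lower were 16.6% in the miR-105 library and 10.4% in the library labelled MYC, and those higher 14.7% and 9.03%. PRSS8, a membrane-anchored protease of epithelia, stood at 58.7 CPM in the miR-105 library, 58.0 in the library labelled MYC, 284 in GFP and 373 in vector. WNK4, a kinase reported to phosphorylate claudins, was 6.74-fold below GFP (3.31 to 16.0) in the miR-105 library. EPHA2, a receptor kinase reported to phosphorylate CLDN4, was 4.71-fold below GFP (4.32 to 5.15) in the library labelled MYC and 1.01-fold above it (0.949 to 1.07) in the miR-105 library. EPCAM, the partner of CLDN7, was not among the genes counted, at 66.5 CPM in the miR-105 library, 55.9 in the library labelled MYC, 36.8 in GFP and 33.5 in vector.

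Of 21 transcription factors reported to act on claudin genes 19 passed the filter. In the miR-105 library 7 were lower (ELF3, GRHL1, EHF, GATA3, OVOL1, OVOL2 and GRHL3) and 1, TWIST2, was higher. Of all genes 16.6% were lower and 14.7% higher there, and the median log2 fold of the 19 was -0.51. GRHL3 had 2 reads in the miR-105 library against 17 in GFP and 14 in vector. Its fold below GFP, 3.91, was within counting error (0.929 to 34.9). ELF3, an epithelial ETS factor, stood at 46.3 CPM in the miR-105 library, 302 in the library labelled MYC, 510.1 in GFP and 561 in vector, a 12.1-fold lower level than vector (10.8 to 13.7) in the miR-105 library. EHF, of the same family, was 4.82-fold below GFP there (4.35 to 5.35) and 3.07-fold below vector (2.75 to 3.43). Lower in the library labelled MYC were 6 factors (GRHL2, GRHL1, OVOL2, OVOL1, SNAI2 and GATA3) and higher were 2 (TP63 and TWIST2), where 10.4% and 9.03% of all genes were, with a median of -0.41. The 2 of 19 higher are near that share of all genes. GRHL2, which acts on the Cldn4 promoter in mouse epithelia, stood at 101 CPM in the miR-105 library, 0 reads in the library labelled MYC, 155 CPM in GFP and 113 CPM in vector. Its level in the library labelled MYC, taken as 3 reads, was 547-fold below GFP and 398-fold below vector, with exact lower bounds of 444 and 323. GRHL1 was low in both. In the miR-105 library it was 7.39-fold below GFP (5.30 to 10.6) and 4.06-fold below vector (2.86 to 5.92). Its folds in the library labelled MYC were 18.9 below GFP (12.6 to 29.7) and 10.4 below vector (6.78 to 16.5). OVOL2, a repressor that keeps epithelial cells epithelial, was 8.73-fold below GFP (6.74 to 11.5) in the library labelled MYC. TP63, a basal epithelial factor reported to act on CLDN1, was 5.37-fold above GFP (4.59 to 6.30) in that library. ZEB1, SNAI1 and ZEB2, repressors of epithelial genes, were not among the genes counted in either library. ZEB1 stood at 5.33, 7.02, 6.50 and 4.86 CPM in the miR-105 library, the library labelled MYC, GFP and vector. In that order TWIST2, counted as higher in both, stood at 4.08, 8.72, 0.578 and 1.62 CPM, with 8 reads in GFP and 15 in vector. SNAI2, counted as lower in the library labelled MYC, stood at 140.1, 45.8, 118 and 149.9 CPM.

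**Figure D4:**
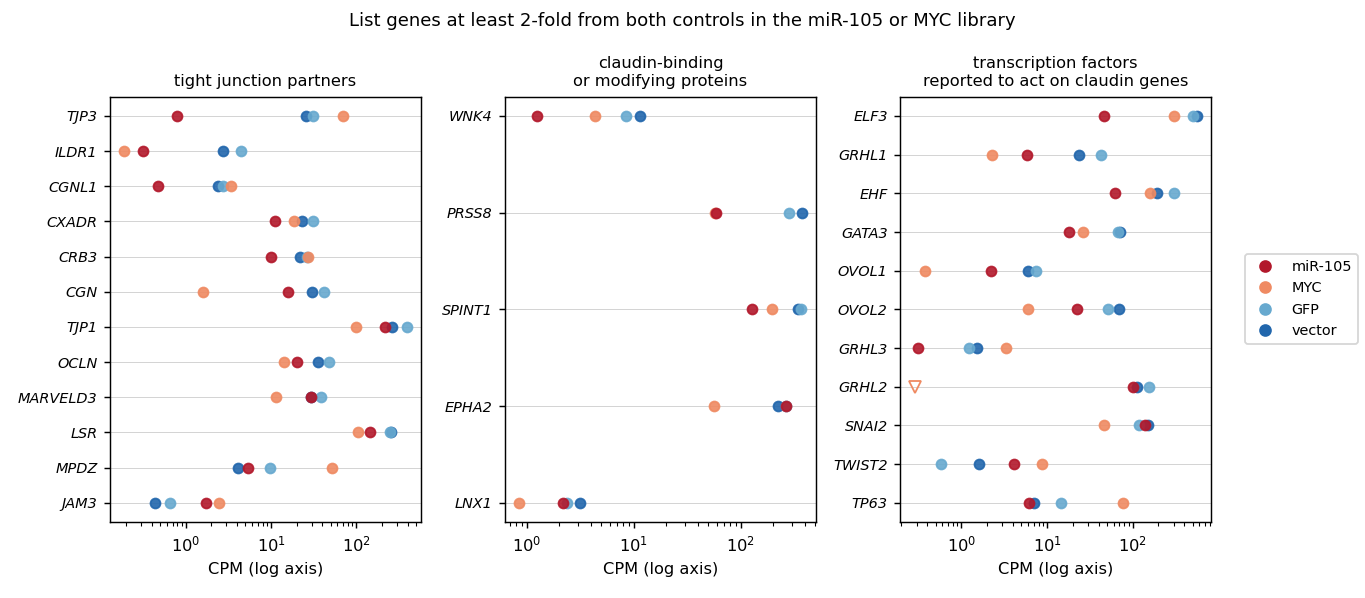
CPM (log axis) in each of the 4 libraries, 1 point per library, of list genes counted as at least 2-fold from both controls in the miR-105 library or the library labelled MYC, with an open triangle at the worth of 3 reads for 0 reads. TJP3 was lowest in the miR-105 library (0.784 CPM) and highest in the library labelled MYC (69.5 CPM), and GRHL2 had 0 reads in the library labelled MYC against 155 CPM in GFP and 113 CPM in vector.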

How the data were processed

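Poly(A) RNA from 4 MCF10A lines was sequenced, 1 library per construct. Per the submitters' processing notes, TopHat2, edgeR and the build hg19 were used; not given in the sources used here are the program that counted reads, its annotation and its use of strand. The authors deposited 1 table of a depth-adjusted signal, not the raw counts the design had assumed. Its values had the form of edgeR pseudo-counts. Undoing this adjustment (common dispersion 0.0553) gave whole reads, within a relative tolerance of 1e-05, for 99.96% of values in the GFP and vector libraries and 100% in the other libraries. On 6000 simulated lines the inversion returned 100% of reads. Of 18859 lines, 19 exact repeats were dropped.

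CPM used TMM factors of 0.929 (miR-105), 1.077 (MYC), 0.987 (GFP) and 1.012 (vector), from edgeR 4.0.16 in R 4.3.3. Ratio intervals are exact conditional binomial, level intervals exact Poisson. No molecular identifiers were used in the analysis, and reads may repeat a molecule, so intervals and limits cover counting error only. With 1 library per construct there was no test of conditions. A fold against 0 reads used 3 reads in that library, with no allowance for counting error in the other. The exact lower bounds given beside such folds do allow for it. As alternatives, edgeR's quasi-likelihood test and DESeq2 1.42.0 took the GFP and vector libraries as 1 control group, with 1 residual degree of freedom, which compares these libraries and not conditions. Exon overlaps and lengths are from GENCODE release 29, whose build differs from hg19, so no gene coordinates are given.

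The claudins and the gene lists were chosen with earlier results of these data known. Named were all 9 claudins, the list genes counted as different, with values for up to 4 per direction with the largest mean log2 fold, and the 3 genes nearest in profile to each claudin that spanned at least 4-fold. TJP1, MXI1, EPCAM, the ZEB and SNAI factors and the genomic neighbours were added outside that rule, after values were seen. Of the claudin-binding or modifying proteins counted as different, 1 is not reported here by name or in the plot.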

Additional observations from a re-analysis of the deposited data

Results flagged for a closer look

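TJP3, which encodes a scaffold that binds claudin tails, went opposite ways in the miR-105 library and the library labelled MYC, below both controls in the first and above both in the second. It stood at 0.784 CPM in the miR-105 library, 69.5 in the library labelled MYC, 30.7 in GFP and 25.8 in vector. The mean log2 fold against the controls, miR-105 library minus library labelled MYC, was -5.77. With 1 library each the difference was not tested, and no clear rise of MYC mRNA bears out the MYC label, as given above.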

How the results depend on the processing

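The 12 counts were recomputed under 108 alternative values, of which 96 stayed within 1.5 times. Many of these were counts of 0 that stayed 0, and a count taken in a fixed direction cannot turn. Without the expression filter, claudins lower in the miR-105 library numbered 5 (CLDN11 and CLDN16 added), those lower than in the library labelled MYC 2, and list genes higher in the miR-105 library 2. With a filter of 5 CPM, which leaves fewer genes, claudins lower in the library labelled MYC numbered 3, those higher in the miR-105 library than in the library labelled MYC 1, list genes higher in the miR-105 library 0, and list genes higher in the library labelled MYC 3. At a 4-fold threshold, claudins lower in the library labelled MYC numbered 3 and those higher in the miR-105 library than in it 2. At 1.5-fold, list genes higher numbered 3 in the miR-105 library and 8 in the library labelled MYC. Adding 2 CPM before the ratio left 2 claudins higher in the miR-105 library than in the library labelled MYC. Single log2 folds moved beyond counting error in 3 of 42 values, all with library totals alone, which shifted the median of all genes to -0.09 in the miR-105 library and 0.14 in the library labelled MYC.

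With GFP and vector taken as 1 control group, edgeR's quasi-likelihood test (Benjamini-Hochberg adjusted p under 0.05) called 4878 of 12484 genes in the miR-105 library and 2788 in the library labelled MYC, and DESeq2 3357 and 1756. Both called CLDN1, CLDN7 and CLDN8 lower in both libraries, and CLDN3 and CLDN4 in the library labelled MYC; CLDN23 there was not called (adjusted p 0.0502 by edgeR and 0.348 by DESeq2). No paired analysis was possible because each construct had 1 library. Depth limits CLDN3, CLDN8, CLDN11, CLDN16 and CLDN23 most: 3 reads were worth 0.471 CPM in the miR-105 library, the shallowest.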

Other observations

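The table held 24 claudin genes, and the 15 not described above were mostly at few or no reads. Of these, 11 stayed under a mean of 1 CPM with at most 20 reads in any library, CLDN25 among them with 0 reads in each. The other 4 passed the filter. CLDN15, a cation pore of the intestine, had 3.45 CPM in the miR-105 library, 13.7 in the library labelled MYC, 16.5 in GFP and 18.8 in vector, 4.79-fold below GFP (3.09 to 7.80) in the miR-105 library and 1.21-fold (0.979 to 1.5) in the library labelled MYC. CLDN9, a claudin of the inner ear, had 3 reads in the miR-105 library and 2 in the library labelled MYC, against 98 in GFP and 89 in vector, a level 15-fold below GFP (5.0 to 74.2) in the miR-105 library and 37.3-fold (10.1 to 313) in the library labelled MYC. CLDN6, a claudin of embryonic epithelia, had 8 reads in the miR-105 library and 1 in the library labelled MYC, against 38 in GFP and 24 in vector. CLDN22 had 3.45 CPM in the miR-105 library, 1.14 in the library labelled MYC, 4.77 in GFP and 6.70 in vector. These genes were picked from the table by name, with no test.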
